A study of Mus musculus with 23 samples.

Results

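The nuclear genes of the mitochondrial respiratory chain and ATP synthase were described across 6 groups of mouse hearts. Members were the protein-coding genes whose symbols begin with Nduf (counted as complex I), are Sdha to Sdhd (complex II), or begin with Uqcr (complex III), with Cox and a digit between 4 and 8 (complex IV) or with Atp5 (complex V). These were 94 of 55487 gene identifiers, with 46 in complex I, 4 in complex II, 8 in complex III, 18 in complex IV and 18 in complex V. Of them 91 passed the filter on low counts. Cox7b2 (at most 4 reads in a library), Cox8c and a second identifier named Atp5o (both at 0 reads in every library) did not. The tested members comprised 17 core or catalytic subunits, 58 other subunits, 6 tissue isoforms, 8 complex I assembly factors and 2 further factors. Ndufa4 and its paralogue Ndufa4l2 were counted under complex I because of their names, although the Ndufa4 protein is known as a subunit of complex IV.

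Complexes I to IV pass electrons from NADH and succinate to oxygen. All of them other than complex II pump protons across the inner mitochondrial membrane, and complex V uses the proton gradient to make ATP. Most of their subunits are encoded in the nucleus, a few in mitochondrial DNA, and dedicated assembly factors join them. The heart beats on oxidative ATP, and adult mouse cardiomyocytes use muscle forms of several complex IV subunits (Cox6a2, Cox7a1 and Cox8b) beside forms found in most tissues (Cox6a1, Cox7a2 and Cox8a).

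Poly-A RNA from whole hearts was sequenced, and every mouse was a wild-type C57BL/6J female of 10 weeks. Mice of the ISO arm were given 300 mg/kg isoproterenol, which drives the beta-adrenergic receptors of the heart. Mice of the LPS arm were given 2.5 mg/kg lipopolysaccharide, a bacterial cell wall component that immune and other cells sense through Toll-like receptor 4. Hearts were taken on day 1 (3 ISO and 4 LPS mice) and day 7 (4 mice in each arm), and each arm had its own untreated baseline (4 mice each). A whole heart mixes cardiomyocytes with vessel, connective tissue and blood cells, and in such bulk RNA fewer cells of a type and less RNA per cell cannot be told apart.

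Estimated reads per library totalled 20910394 to 30368985, and members held 2.97% to 3.8% of them. All 10 cardiomyocyte markers examined were detected, and their summed level was 34575 to 62320 TPM (a level per unit of transcript length, scaled to a common total) across the 23 libraries. Some libraries stood apart within their groups. ISO day 7 replicate 3 held 906 TPM of 7 fibroblast markers, against 277 to 365 TPM in the other 3 libraries of its group, and the LPS day 1 libraries differed less within the pairs 1 and 2, and 3 and 4, than across them (chi-square per degree of freedom 13.31 and 10.56, against 30.51 to 45.63).

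Cox6a2 was the member of complex IV with the highest level per length at both baselines, and Atp5b, the catalytic beta subunit of ATP synthase, was the highest of all members. Atp5b averaged 4025 ± 87.8 TPM at ISO baseline and 3838 ± 59.4 TPM at LPS baseline (SD, n = 4 each). Cox6a2 averaged 3365 ± 122 TPM at ISO baseline and 3567 ± 76.2 TPM at LPS baseline. In complex I, mean levels at ISO baseline ran between 11.6 TPM for the assembly factor Ndufaf5 and 1009 TPM for the accessory subunit Ndufb8. The paralogues Cox4i2 (10.1 ± 1.6 TPM), Cox6b2 (2.33 TPM) and Ndufa4l2 (19.1 ± 2.32 TPM) were minor forms at ISO baseline beside Cox4i1 at 2018 ± 31.7 TPM.

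Summed over members, the nuclear respiratory chain took a smaller share of nuclear protein-coding transcripts at day 1 after either agent. In the ISO arm the share of nuclear protein-coding TPM was 14.2%, 13.7%, 13.9% and 13.5% at baseline, 10.9%, 10.4% and 11.6% on day 1, and 13.8%, 13.7%, 12.5% and 13.4% on day 7. In the LPS arm it was 13.9%, 13.7%, 13.4% and 13.4% at baseline, 11.6%, 12.3%, 11.1% and 11.5% on day 1, and 12.4%, 12.5%, 12.3% and 12.5% on day 7. By this share every day 1 library lay below every baseline library of its arm, and so did the 4 LPS day 7 libraries. The ISO day 7 libraries overlapped their baseline. Summed as CPM (read counts brought to a common library total), LPS day 1 overlapped its baseline too, with 33287, 38787, 29585 and 31933 CPM, against 37937, 37162, 34797 and 35313 CPM at LPS baseline. The log2 difference of the LPS day 1 and baseline means was -0.13 by CPM and -0.23 by share for all members, and -0.08 and -0.20 for complex IV.

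The drop of summed share was described for each of the 5 complexes. Complex II had the largest drop of summed share on day 1, to 0.307% ± 0.0192 at ISO day 1 (SD, n = 3), against 0.424% ± 0.00582 at ISO baseline (SD, n = 4), a ratio of 0.722. After LPS it held 0.349% ± 0.0102 on day 1, against 0.435% ± 0.00598 at baseline (SD, n = 4 each), a ratio of 0.801. Complex V had the smallest drop after ISO, with a ratio of 0.814, close to 0.808 for complex III. After LPS complex IV had the smallest, with a ratio of 0.872, close to 0.858 for complex III and 0.857 for complex V. At LPS day 7 the ratios to baseline were 0.936 for complex I, 0.911 for complex II, 0.885 for complex III, 0.884 for complex IV and 0.934 for complex V. As a sum of TPM, without relating it to the other nuclear genes, the level at LPS day 7 was 60081 ± 2001 TPM, against 59598 ± 504 TPM at LPS baseline (SD, n = 4 each), which did not differ beyond the spread. Differences between complexes were not tested, and the summed share rests mostly on the genes with the highest levels.

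**Figure D1:**
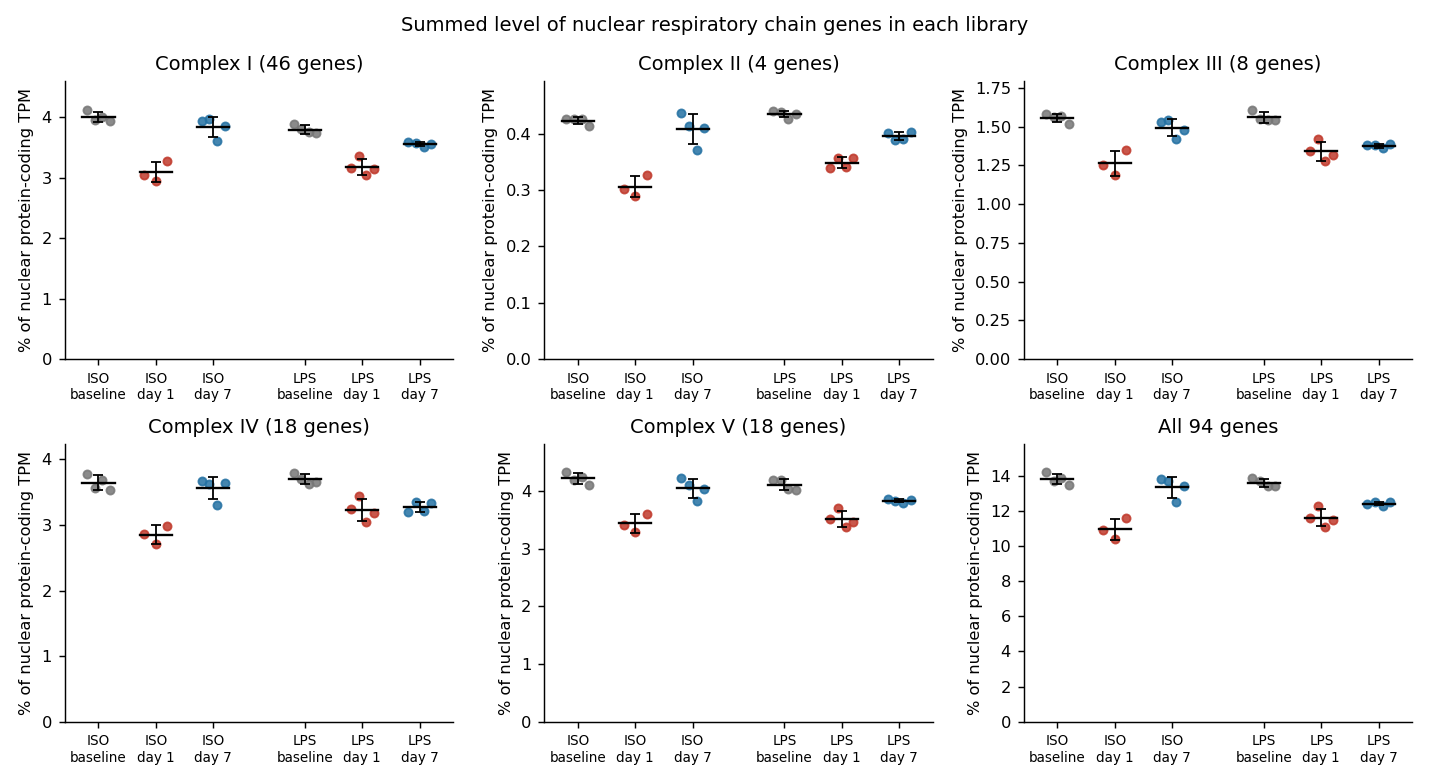
Summed level of each complex as a percent of the TPM of all nuclear protein-coding genes (vertical axis, linear, beginning at 0) in each library, in time order within the ISO and the LPS arm. Points are libraries, the horizontal line is the group mean and the bar is 1 SD (n = 3 at ISO day 1, n = 4 elsewhere). All 7 day 1 libraries lie below the baseline libraries of their arm in each of the 6 panels.

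The comparison of ISO day 1 with ISO baseline asked how the members stood 1 day after isoproterenol. Of 91 members, 66 were lower and 3 were higher (edgeR quasi-likelihood test, Benjamini-Hochberg adjusted p under 0.05 over 15732 genes), so that 72.5% of members were lower, against 32.8% of all genes tested (32.9% of all genes were higher). The median log2 change was -0.27 over members and -0.015 over all genes. Lower members numbered 38 of 46 in complex I, 4 of 4 in complex II, 6 of 8 in complex III, 7 of 16 in complex IV and 11 of 17 in complex V. The 3 higher members were Ndufaf4 in complex I and Cox6a1 and Cox8a in complex IV. For 68 members every ISO day 1 library lay below every ISO baseline library (74.7%, against 33.3% of all genes), and for 2 every one lay above it (2.2%, against 33.4%). Of 10 cardiomyocyte markers 6 were lower and 1 was higher at ISO day 1, with a summed level of 38459 to 44097 TPM, against 50370 to 51897 TPM at ISO baseline, and their part in the members' changes was not tested.

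**Figure D2:**
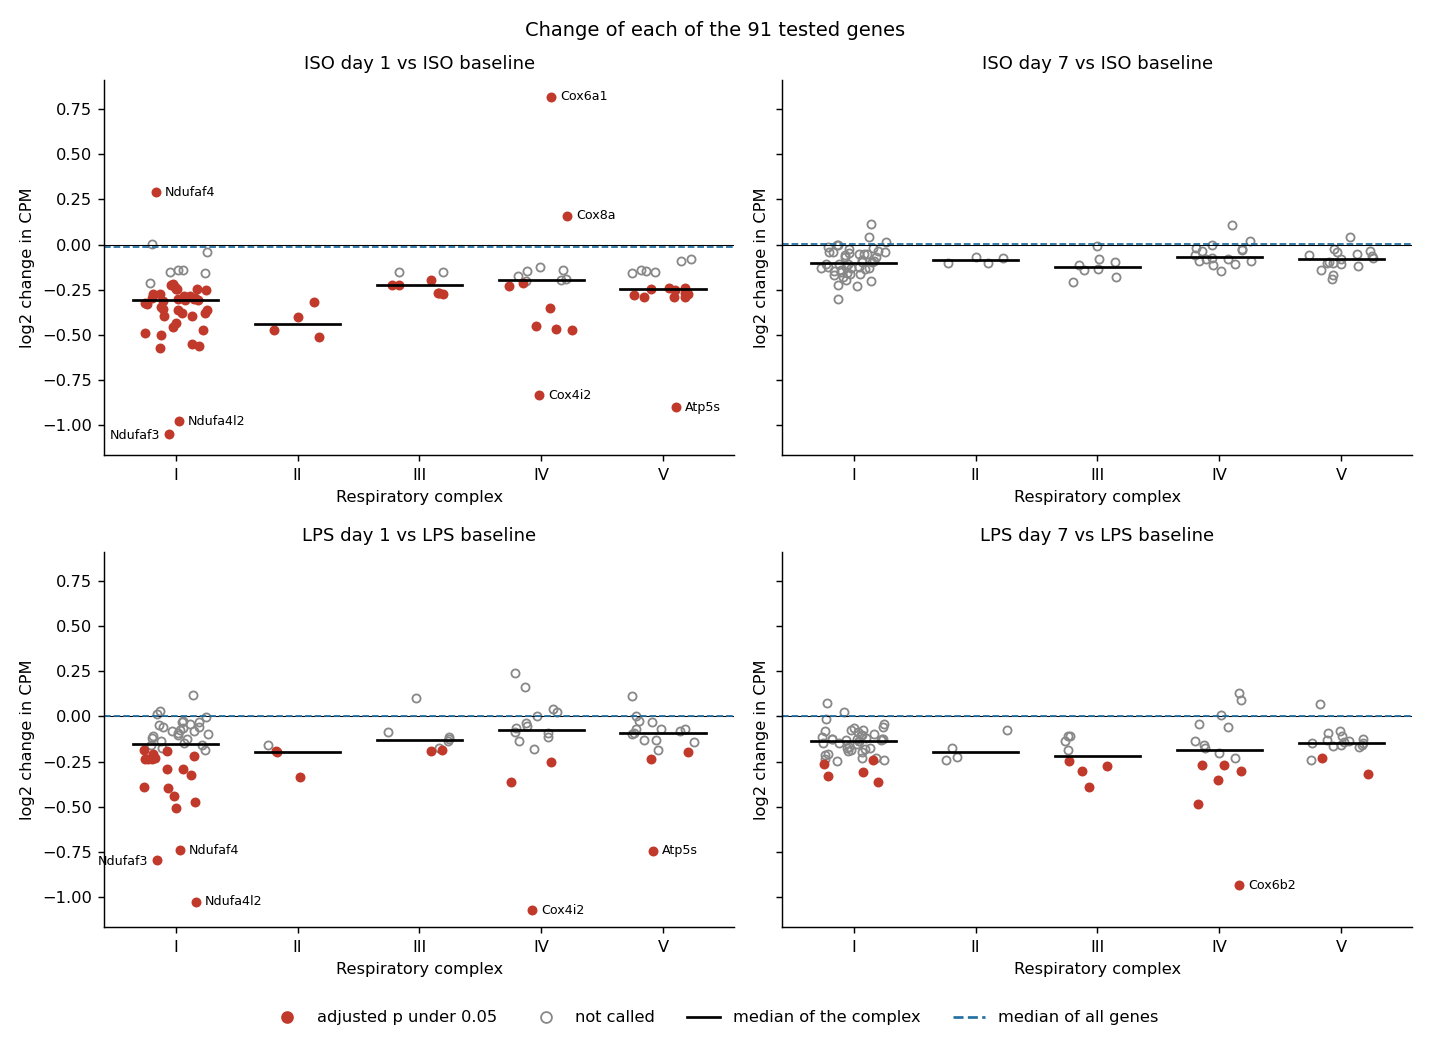
Log2 change in read counts scaled between libraries (CPM) of each of the 91 tested members by complex (horizontal axis), in 4 comparisons of a treated group with its own baseline. Filled points have an adjusted p under 0.05, black lines are the median of the complex and the dashed line is the median of all genes. At ISO day 1 Cox6a1, Ndufaf4 and Cox8a lie above 0 while 66 filled points lie below it, and at ISO day 7 there is no filled point.

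Complex I assembly factors held the deepest drop among the members at ISO day 1 and also 1 of the 3 rises. Ndufaf3 (ENSMUSG00000070283) and Ndufaf4 (ENSMUSG00000028261) encode partners that act together early in complex I assembly. Ndufaf3 had 9.75, 8.48 and 10.1 CPM at ISO day 1, against 20.5, 19.9, 19.1 and 18.3 CPM at ISO baseline. The groups did not overlap, and the log2 change was -1.05 (SE 0.09, edgeR adjusted p = 1.44e-09). Ndufaf4 had 39.2, 40.9 and 38.5 CPM at ISO day 1, against 33.7, 31.9, 32.7 and 31.3 CPM at ISO baseline. Each ISO day 1 library was above the baseline range, and the log2 change was 0.29 (SE 0.11, edgeR adjusted p = 0.0255). The call of Ndufaf4 was lost in 4 of 18 alternatives. Among them, leaving out ISO baseline replicate 4 gave an edgeR adjusted p of 0.0551, and leaving out ISO day 1 replicate 1 or 2 gave 0.0514 and 0.0812. The log2 change of Ndufaf4 was between 0.22 and 0.39 over the 18 alternatives run.

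The other 6 assembly factors tested in complex I were lower. Ndufaf5 and Ndufaf7, which modify core subunits of complex I, changed by -0.57 and -0.50 on the log2 scale (SE 0.12 and 0.10). Ndufaf6 changed by -0.55 (SE 0.11, edgeR adjusted p = 8.23e-05), Ndufaf2 by -0.30, Ndufaf8 by -0.23 and Ndufaf1, a member of the complex that builds the membrane arm, by -0.22. The median over the 8 assembly factors was -0.40, beside -0.38 over the 7 core subunits of complex I and -0.29 over its 30 other subunits, and no difference between these classes was tested.

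All 7 core subunits of complex I were lower at ISO day 1. Ndufs7, which carries the last iron-sulfur cluster before ubiquinone, had 285, 273 and 318 CPM at ISO day 1, against 460, 424, 442 and 394 CPM at ISO baseline. Its log2 change was -0.56 (SE 0.08, edgeR adjusted p = 2.07e-06), without overlap between the groups. Ndufs1, the largest iron-sulfur subunit, changed by -0.47 and Ndufv1, which binds the flavin that accepts electrons from NADH, by -0.27. Among other subunits, Ndufs4 changed by -0.46, Ndufa6 by -0.40 and Ndufb3 by -0.36 on the log2 scale. Ndufb4 (-0.34) and Ndufab1 (-0.36) each have an annotated pseudogene that drew reads, so their counts may be split. The pseudogene Ndufb4c averaged 3243 reads per library, against 840.2 for Ndufb4 itself. Ndufab1-ps averaged 306 reads, against 6252 for Ndufab1.

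Succinate dehydrogenase, the enzyme shared with the citric acid cycle, was lower in all 4 subunits. Sdha, the flavoprotein, had 980, 950 and 1089 CPM at ISO day 1, against 1362, 1301, 1380 and 1263 CPM at ISO baseline. Its log2 change was -0.40 (SE 0.08, edgeR adjusted p = 0.000255). Sdhb, the iron-sulfur subunit, changed by -0.32 (SE 0.08, adjusted p = 0.00177 by edgeR), and the membrane anchors Sdhc and Sdhd by -0.48 and -0.51 (SE 0.08 each, adjusted p = 3.61e-05 and 1.03e-05 by edgeR). No ISO day 1 library reached the baseline range of any of the 4 genes.

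In complex III the log2 changes lay between -0.27 and -0.15 over its 8 members. Uqcr11, a small subunit, changed by -0.27 (SE 0.08, edgeR adjusted p = 0.00473), and Uqcrc1, a core protein, and Uqcrq by -0.27 each, of which both calls were lost without ISO day 1 replicate 2 (edgeR adjusted p = 0.0554 and 0.0922). Uqcrfs1, the Rieske iron-sulfur protein that passes electrons to cytochrome c1, changed by -0.23. Uqcrb and Uqcrh did not pass the test (-0.15 each). In complex V, Atp5s, coupling factor B, changed most. It had 6.17, 5.79 and 7.25 CPM at ISO day 1, against 12.3, 12.6, 10.7 and 12.1 CPM at ISO baseline, a log2 change of -0.90 (SE 0.10, edgeR adjusted p = 3.25e-08). Atp5h, a stator subunit, changed by -0.29 and Atp5j2 by -0.28. Atp5b, with 3528, 3453 and 3852 CPM at ISO day 1 and 4151, 3944, 4186 and 3810 CPM at ISO baseline, did not pass the test (-0.16, SE 0.07, edgeR adjusted p = 0.0669).

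The 3 genes of subunit c, which forms the rotor ring of ATP synthase, encode the same mature protein. Of these, Atp5g1 was lower at ISO day 1 (-0.29, SE 0.09, edgeR adjusted p = 0.00592), while Atp5g2 (-0.14) and Atp5g3 (-0.09) did not pass the test. Atp5g1 made up 50.2%, 49.1% and 48.7% of the TPM of Atp5g1 and Atp5g3 at ISO day 1, against 52.3%, 52.4%, 52.6% and 52.6% at ISO baseline. At LPS day 1 the share was 54.2%, 52.4%, 53.4% and 53.6%, against 55.5%, 56.2%, 55.9% and 56% at LPS baseline. The groups did not overlap in either arm, and the log2 ratio differed by -0.18 after ISO (exact two-sided permutation test, p = 0.05714, adjusted p = 0.1143 over 32 ratio tests) and by -0.15 after LPS (exact p = 0.02857, adjusted p = 0.09143).

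Within complex IV, the widely expressed form of subunit 6a rose at ISO day 1 and its muscle form fell. Cox6a1 (ENSMUSG00000041697), the widely expressed subunit 6a, had 131, 132 and 146 CPM at ISO day 1, against 83.3, 78.6, 72.6 and 75.3 CPM at ISO baseline. Its log2 change was 0.82 (SE 0.09, edgeR adjusted p = 7.18e-08), the largest rise among the members. Cox6a2, the muscle form, had 1266, 1187 and 1388 CPM at ISO day 1, against 1964, 1704, 1797 and 1625 CPM at ISO baseline, a log2 change of -0.47 (SE 0.10, edgeR adjusted p = 0.000279). Neither gene's groups overlapped, and the muscle form remained the major one.

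The share of Cox6a1 in the TPM of both subunit 6a genes was 11.3%, 11.9% and 11.4% at ISO day 1, against 5%, 5.4%, 4.77% and 5.41% at ISO baseline. The log2 ratio of Cox6a1 to Cox6a2 differed by 1.27, and the exact two-sided permutation test gave p = 0.05714, the smallest that 3 against 4 libraries allow (adjusted p = 0.1143 over 32 ratio tests). No ratio at ISO day 1 could therefore pass this test under 0.05. On day 7 the share was 4.57%, 5.37%, 5.85% and 5.22%, which overlapped the baseline. At ISO day 1, 3 of 6 endothelial markers were higher and 1 was lower, with a summed level of 1732 to 2062 TPM, against 614 to 770 TPM at ISO baseline, while 7 macrophage markers summed to 57.5 to 66.8 TPM, against 82.5 to 95.7 TPM. The part of other cell types in the share of Cox6a1 was not tested.

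The forms of subunit 8 had the same signs, although the call of the widely expressed form was less stable. Cox8b, the muscle form, had 239, 223 and 255 CPM at ISO day 1, against 352, 314, 331 and 310 CPM at ISO baseline (log2 change -0.45, SE 0.09, edgeR adjusted p = 0.000128). Cox8a, the widely expressed form, had 103, 97.1 and 111 CPM at ISO day 1, against 100, 92.5, 91.4 and 88 CPM at ISO baseline, so the libraries overlapped. Its log2 change was 0.16 (SE 0.07, edgeR adjusted p = 0.0378), and this call was lost in 9 of 18 alternatives, among them each of the 5 fits without ISO baseline replicate 2, 3 or 4 or ISO day 1 replicate 1 or 3 (adjusted p = 0.0663, 0.0757, 0.106, 0.0715 and 0.204). Cox8a made up 18.9%, 18.6% and 18.8% of subunit 8 TPM at ISO day 1, against 13.3%, 13.7%, 13% and 13.4% at ISO baseline, a difference of 0.59 in the log2 ratio (exact p = 0.05714, adjusted p = 0.1143). On day 7 it made up 13.9%, 15.3%, 17.1% and 15.1%, above every baseline library, with a difference of 0.23 in the log2 ratio (exact p = 0.02857, the smallest that 4 against 4 allow, adjusted p = 0.09143).

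In subunit 7a the difference between the forms was smaller in size, and it was not set against the other pairs by a test. Cox7a1, the muscle form, was lower at ISO day 1 (log2 change -0.35, SE 0.11, edgeR adjusted p = 0.00625), and Cox7a2, the widely expressed form, changed by -0.20 without passing the test. The share of Cox7a2 in their TPM was 20.3%, 22.1% and 21.1% at ISO day 1, against 20.2%, 19.7%, 19.2% and 17.8% at ISO baseline (exact p = 0.05714, adjusted p = 0.1143). The related Cox7a2l, which helps to join complexes III and IV and is known to be shortened in C57BL/6J mice, had 96, 91.1 and 101 CPM at ISO day 1, against 136, 132, 138 and 127 CPM at ISO baseline. It changed by -0.47 on the log2 scale (SE 0.05, edgeR adjusted p = 1.24e-08). Cox4i1 (-0.19, SE 0.09), Cox6b1 (-0.14), Cox6b2 (-0.15), Cox7b (-0.17) and Ndufa4 (-0.15) did not pass the test.

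**Figure D3:**
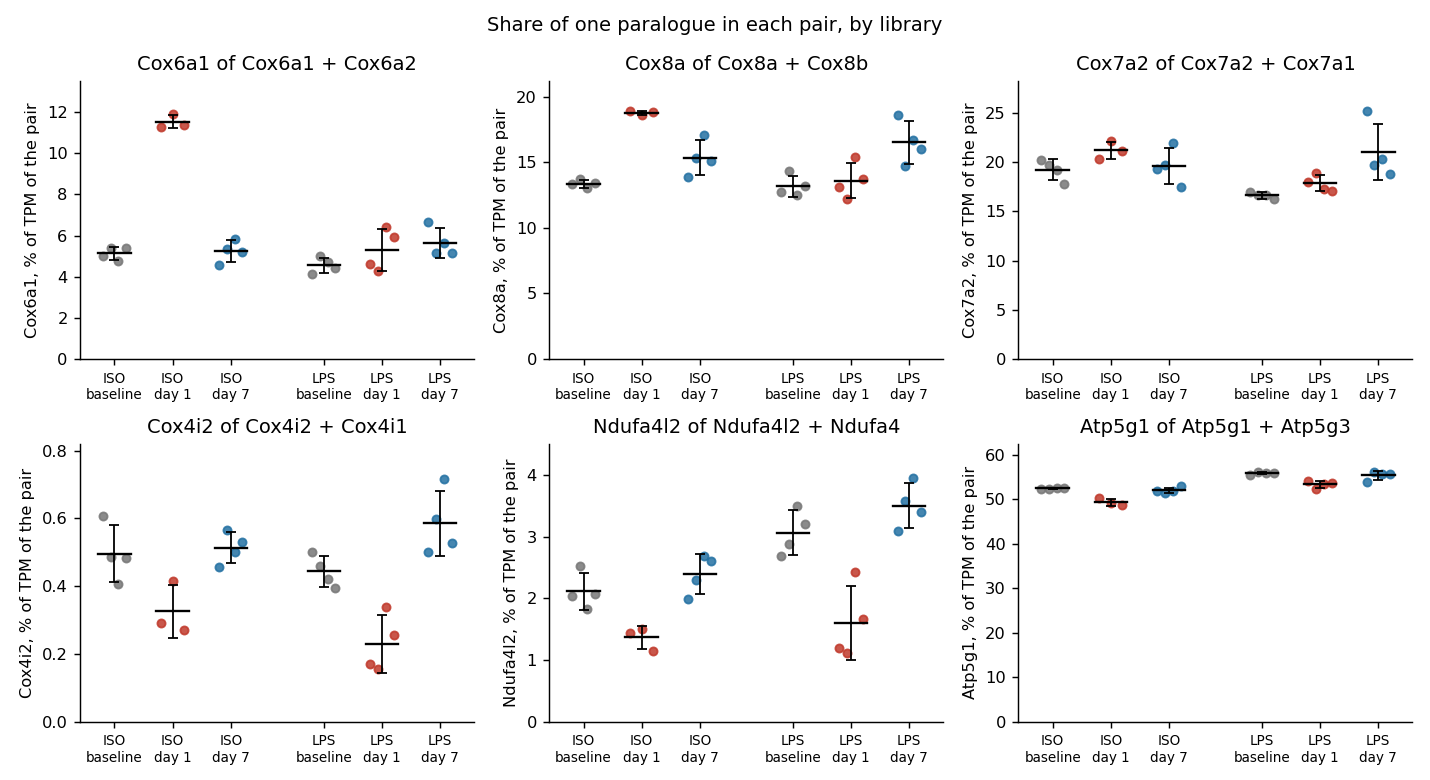
Share of 1 paralogue in the summed TPM of a pair (vertical axis, percent, linear, beginning at 0) in each library, in time order within each arm. Points are libraries, lines are group means and bars are 1 SD (n = 3 at ISO day 1, n = 4 elsewhere). The Cox6a1 share is 11.3% to 11.9% at ISO day 1 and at most 6.65% in all other libraries.

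Cox4i2 and Ndufa4l2, paralogues known from low oxygen and, in the mouse heart, from pericytes, were lower as well. Cox4i2 had 2.93, 3.78 and 3.04 CPM at ISO day 1, against 7.41, 5.67, 4.85 and 5.31 CPM at ISO baseline (log2 change -0.83, SE 0.18, edgeR adjusted p = 0.000282). Ndufa4l2 had 7.12, 7.76 and 7.58 CPM at ISO day 1, against 15.2, 17, 13.5 and 13.4 CPM at ISO baseline (log2 change -0.98, SE 0.16, edgeR adjusted p = 1.57e-05). The groups did not overlap for either gene. Of 10 pericyte and smooth muscle markers, 3 were higher and 5 were lower at ISO day 1, and their summed level was 416 to 587 TPM, against 324 to 442 TPM at ISO baseline. None of these markers was at 0 in every library, and their part in the drop of Cox4i2 and Ndufa4l2 was not tested.

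**Figure D4:**
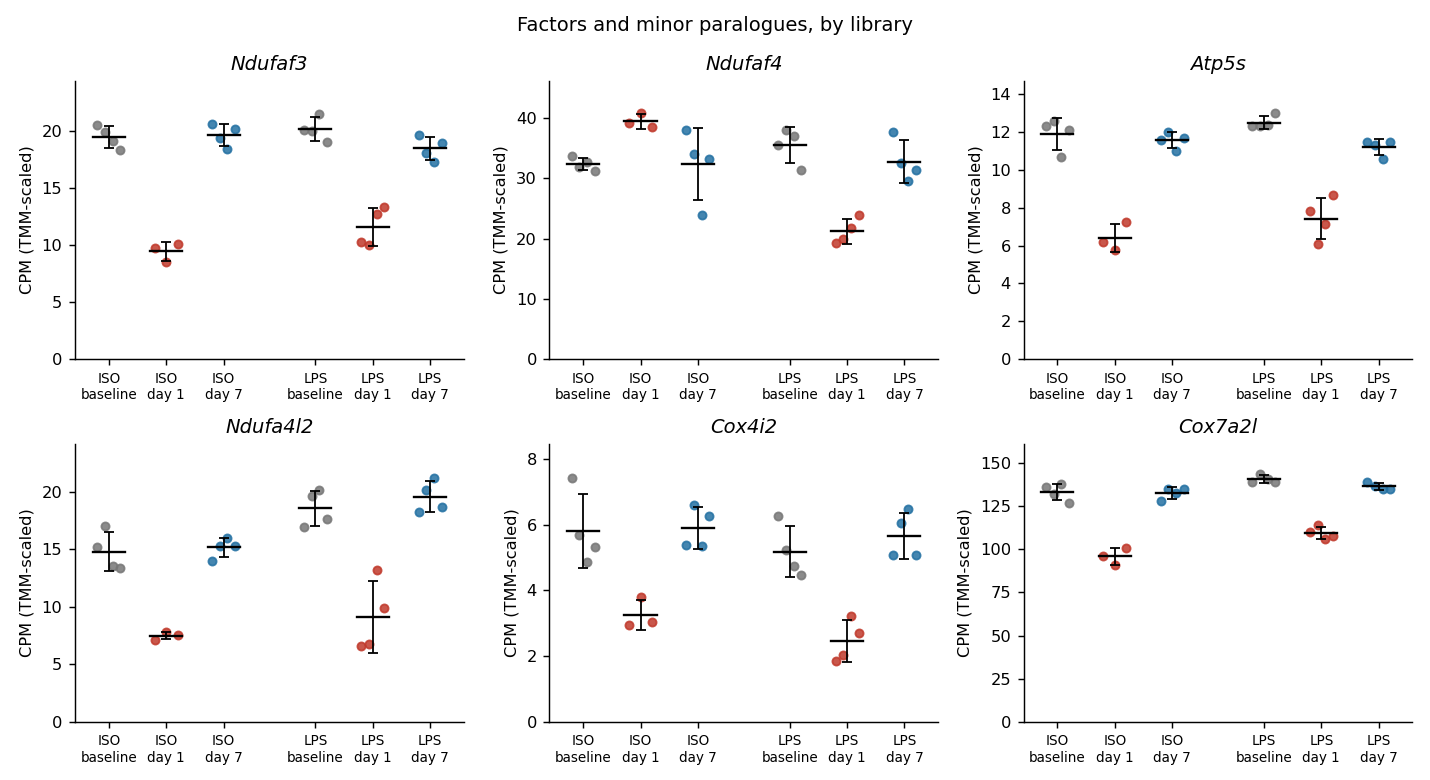
Level in scaled read counts (CPM, vertical axis, linear, beginning at 0) of 6 members in each library, in time order within each arm. Points are libraries, lines are group means and bars are 1 SD (n = 3 at ISO day 1, n = 4 elsewhere). Ndufaf3, Atp5s, Ndufa4l2, Cox4i2 and Cox7a2l are low on day 1 of both arms, while Ndufaf4 is 38.5 to 40.9 CPM at ISO day 1 and 19.3 to 24 CPM at LPS day 1.

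Because the 3 members that were higher at ISO day 1 stood against the rest, the 250 bases before their annotated starts are shown with those of Ndufaf3 and Cox8b, lower members of the same complexes. Sequences are from RefSeq on GRCm38.p6, which held a promoter for 77 of the 94 identifiers, or 76 RefSeq genes. No promoter was available for Cox6a2, the muscle paralogue of Cox6a1, so it could not be shown. The motifs searched on both strands were CCGGAAG (the site of ETS factors), AAGGTCA (a core site bound by ERR-type nuclear receptors), GCGCATG (one arm of the palindromic site of NRF1) and AAGATGG (the YY1 motif). Capitals mark every match, and the pair of GCGCATG matches on opposite strands in Cox6a1 and Ndufaf4 overlap by 4 bases.
Cox6a1, chr5:115348959-115349208, minus strand: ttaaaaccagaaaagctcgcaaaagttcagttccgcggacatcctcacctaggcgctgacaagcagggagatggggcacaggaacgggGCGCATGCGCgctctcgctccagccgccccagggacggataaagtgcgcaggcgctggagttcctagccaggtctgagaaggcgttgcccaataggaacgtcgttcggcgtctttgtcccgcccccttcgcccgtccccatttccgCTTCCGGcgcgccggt
Cox8a, chr19:7217617-7217866, minus strand: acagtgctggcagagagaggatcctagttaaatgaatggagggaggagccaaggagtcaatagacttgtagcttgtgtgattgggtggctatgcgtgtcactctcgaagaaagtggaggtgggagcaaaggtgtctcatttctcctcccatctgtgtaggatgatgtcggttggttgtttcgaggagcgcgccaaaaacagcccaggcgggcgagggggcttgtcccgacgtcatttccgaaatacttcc
Ndufaf4, chr4:24897833-24898082, plus strand: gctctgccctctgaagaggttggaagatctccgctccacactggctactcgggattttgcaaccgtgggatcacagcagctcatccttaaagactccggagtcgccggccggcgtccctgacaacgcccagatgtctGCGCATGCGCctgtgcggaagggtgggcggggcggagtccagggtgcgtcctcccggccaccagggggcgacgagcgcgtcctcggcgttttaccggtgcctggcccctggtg
Cox8b, chr7:140900447-140900696, minus strand: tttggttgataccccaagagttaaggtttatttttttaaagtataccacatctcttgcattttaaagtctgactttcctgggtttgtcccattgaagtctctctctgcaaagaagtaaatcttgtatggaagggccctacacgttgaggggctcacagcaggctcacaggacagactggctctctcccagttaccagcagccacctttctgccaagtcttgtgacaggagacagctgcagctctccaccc
Ndufaf3, chr9:108567437-108567686, minus strand: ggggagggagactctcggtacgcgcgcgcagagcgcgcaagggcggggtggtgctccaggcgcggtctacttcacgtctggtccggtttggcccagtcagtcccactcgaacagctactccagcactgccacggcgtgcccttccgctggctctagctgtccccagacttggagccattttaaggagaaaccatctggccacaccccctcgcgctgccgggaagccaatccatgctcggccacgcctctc
GCGCATG was found before 11 of 76 members (14.5%), against 4.51% of 17492 protein-coding genes, and CCGGAAG before 14 (18.4%), against 10.2%. AAGGTCA was found before 5 members (6.58%), against 4.18% of all genes, and AAGATGG before 1 (1.32%), against 4.77%. Among the 53 members with a promoter that were lower at ISO day 1, GCGCATG was found before 5 (9.43%) and CCGGAAG before 9 (17%), and among the 23 others before 6 (26.1%) and 5 (21.7%). The 23 others include the higher members Cox6a1, Cox8a and Ndufaf4, and also Cox7b2, which was not tested. Cox6a1 and Ndufaf4, shown above, are among the 6 with GCGCATG. These matches describe letters in the sequence, and binding of any factor was not measured.

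The comparison of LPS day 1 with LPS baseline gave 30 lower members of 91 and none higher (edgeR quasi-likelihood test, none higher at an unadjusted p under 0.05, none higher by DESeq2). Lower members were 33% of those tested, against 33% of all genes tested, so the share of members called lower was that of the background. No member was higher, against 33.2% of all genes (66.2% of all genes were called in either direction). The median log2 change was -0.13 over members and 0 over all genes. In complex I 19 of 46 were lower, in complex II 3 of 4, in complex III 2 of 8, in complex IV 3 of 16 and in complex V 3 of 17. For 17 members (18.7%) every LPS day 1 library lay below every LPS baseline library, against 28.9% of all genes, and for none did every library lie above it, against 29.3% of all genes. Libraries differed within the group: the median member lay 0.11 below the mean of LPS baseline in replicate 1, 0.10 above it in replicate 2, 0.31 below it in replicate 3 and 0.20 below it in replicate 4 on the log2 scale. Without replicate 2 the fit called 60 members lower and without replicate 3 it called 18, and without both replicates 1 and 2 or both replicates 3 and 4 it called 69 and 13. Of 10 cardiomyocyte markers 7 were lower and none was higher at LPS day 1, with a summed level of 34575 to 36993 TPM, against 49252 to 50212 TPM at LPS baseline, and their part in the members' changes was not tested.

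The largest log2 changes at LPS day 1 were those of factors and minor paralogues. Assembly factors were lower in 6 of 8 cases, with a median of -0.42. Ndufaf3 had 10.3, 9.96, 12.7 and 13.3 CPM at LPS day 1, against 20.1, 20, 21.5 and 19 CPM at LPS baseline, a log2 change of -0.79 (SE 0.08, edgeR adjusted p = 1.75e-08). Ndufaf4 had 19.3, 20, 21.7 and 24 CPM at LPS day 1, against 35.6, 38.1, 37.1 and 31.4 CPM at LPS baseline, a log2 change of -0.74 (SE 0.10, edgeR adjusted p = 1.69e-06). After LPS both partners were thus low, with no overlap between the groups. Ndufaf1 changed by -0.44, Ndufaf6 by -0.47, Ndufaf5 by -0.40 and Ndufaf7 by -0.29.

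Atp5s had 7.81, 6.08, 7.16 and 8.65 CPM at LPS day 1, against 12.3, 12.3, 12.4 and 13 CPM at LPS baseline (log2 change -0.74, SE 0.09, edgeR adjusted p = 1.02e-07). Cox7a2l had 110, 114, 106 and 108 CPM, against 139, 144, 141 and 139 CPM at LPS baseline (log2 change -0.36, SE 0.04, edgeR adjusted p = 1.89e-07). Ndufs7 had 240, 279, 239 and 277 CPM, against 383, 381, 346 and 361 CPM at LPS baseline (log2 change -0.51, SE 0.07, edgeR adjusted p = 2.14e-06). None of these 3 genes overlapped between the groups, and each was lower in all 4 libraries, including replicate 2.

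Cox4i2 had 1.86, 2.04, 3.23 and 2.7 CPM at LPS day 1, against 6.26, 5.24, 4.74 and 4.47 CPM at LPS baseline (log2 change -1.07, SE 0.17, edgeR adjusted p = 7.24e-06). Ndufa4l2 had 6.55, 6.77, 13.2 and 9.85 CPM, against 16.9, 19.6, 20.1 and 17.6 CPM at LPS baseline (log2 change -1.02, SE 0.14, edgeR adjusted p = 1.61e-06). Replicates 3 and 4 held more of both than replicates 1 and 2, and all 4 lay below the baseline range. Here 8 of 10 pericyte and smooth muscle markers were lower and none was higher, with a summed level of 205 to 329 TPM at LPS day 1, against 374 to 467 TPM at LPS baseline, and their part in the drop was not tested.

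Of succinate dehydrogenase, Sdhd had 190, 218, 176 and 194 CPM at LPS day 1, against 258, 248, 236 and 238 CPM at LPS baseline (log2 change -0.33, SE 0.08, edgeR adjusted p = 0.00048). Sdhb and Sdhc changed by -0.19 and -0.20 (edgeR adjusted p = 0.029 and 0.0298), and Sdha by -0.16 without passing the test (edgeR adjusted p = 0.0803). In complex III Uqcrc2, the other core protein, and Uqcrfs1 were lower (-0.19 and -0.18), and in complex V Atp5g1 (-0.23) and Atp5f1, a stator subunit (-0.19). Cox7a1 was lower (-0.25, SE 0.10, edgeR adjusted p = 0.0272). The calls of Sdhb, Sdhc, Uqcrc2, Uqcrfs1, Atp5g1, Atp5f1 and Cox7a1 were each lost without LPS day 1 replicate 3 (edgeR adjusted p between 0.0651 and 0.129), those other than Atp5g1 also without replicate 4 (0.0556 to 0.0808), and several without LPS baseline replicate 1, 2 or 4 or LPS day 1 replicate 1. The muscle form Cox6a2 (-0.04), with 1785, 2089, 1436 and 1657 CPM at LPS day 1 and 1879, 1860, 1662 and 1738 CPM at LPS baseline, and Cox6a1 (0.17), with 70.6, 76, 80.6 and 84.7 CPM at LPS day 1 and 66, 79.6, 67 and 65.5 CPM at LPS baseline, did not pass the test and overlapped between the groups.

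A test of the difference between the ISO and the LPS effect on day 1, each against its own baseline, passed for 6 of 91 members, against 37.6% of all genes. The difference was above 0 for 3 of them (3.3% of members, against 19.5% of all genes) and below 0 for 3 (3.3%, against 18.2%). Called or not, it was below 0 for 82 of 91 members and above 0 for 9. Its median was -0.143 over members and 0.004 over all genes. At an unadjusted edgeR p under 0.05, 17 members were below 0 and 4 were above 0. Ndufaf4 differed most, by 1.03 on the log2 scale (SE 0.15, edgeR adjusted p = 1.2e-05), followed by Cox6a1 at 0.65 (SE 0.13, edgeR adjusted p = 0.000306) and Cox8a at 0.30 (SE 0.09, edgeR adjusted p = 0.0116). The effect of ISO was the lower one among others for Cox6a2, with a difference of -0.43 (SE 0.14, edgeR adjusted p = 0.0139), and for Uqcr10, a small subunit of complex III, with -0.29 (SE 0.11, edgeR adjusted p = 0.0453). The Uqcr10 call was lost in 13 of 27 alternatives, among them the fits without ISO baseline replicate 1, 2 or 3, ISO day 1 replicate 1 or 2, LPS baseline replicate 1, 3 or 4, or LPS day 1 replicate 1 or 2 (edgeR adjusted p between 0.0506 and 0.171), and that of Cox6a2 without LPS day 1 replicates 1 and 2 together (0.0934). Of the members called in both day 1 comparisons, Ndufaf4 alone had opposite signs. Cox8a, called higher at ISO day 1, changed by -0.14 at LPS day 1 (SE 0.06, edgeR adjusted p = 0.0524), and it was called lower there in 9 of 21 alternatives. The number of members whose effect was lower after ISO was 23 when scaled by library totals, 19 without LPS day 1 replicate 3, 13 without ISO day 1 replicate 3 and 36 without LPS day 1 replicates 3 and 4.

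**Figure D5:**
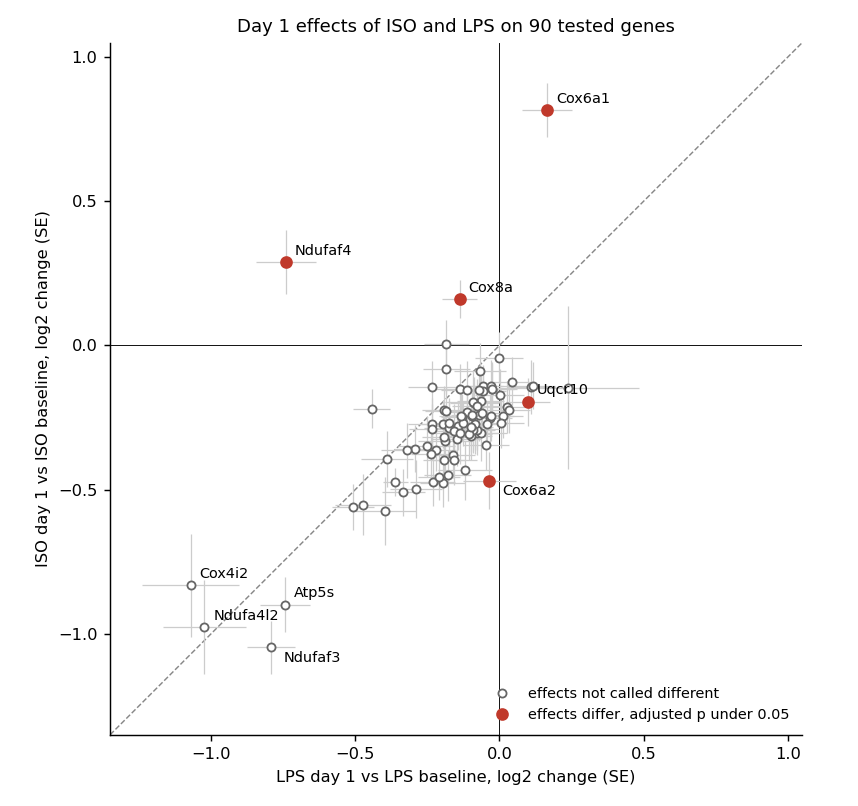
Log2 change of 90 of the tested members at LPS day 1 (horizontal axis) and at ISO day 1 (vertical axis), each against its own baseline, with 1 SE. Filled points are the 5 plotted members whose effects differ at an adjusted p under 0.05, and the dashed diagonal marks equal effects. Cox6a1, Ndufaf4 and Cox8a lie above the diagonal, and Cox6a2 and Uqcr10 lie below it.

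On day 1 of both arms 27 members were lower, or 29.7% of those tested, against 22.1% of all genes tested. They made up 40.9% of the 66 lower after ISO and 90% of the 30 lower after LPS, while over all genes the shared ones made up 67.3% and 67% of the genes lower after ISO and after LPS. The 3 members lower after LPS and not after ISO were Ndufa11, Ndufaf4 and Ndufc2.

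At ISO day 7 no member was called in either direction against ISO baseline (edgeR quasi-likelihood test, 0 of 91, against 0% of all genes higher and 0.00636% lower). At an unadjusted p under 0.05, 10 members were lower and none was higher, and DESeq2 called none. The median log2 change was -0.09 over members and 0.005 over all genes, and 85 of 91 members were below 0. The libraries were not alike, with the median member 0.01, 0.02, 0.28 and 0.07 below the mean of ISO baseline in replicates 1 to 4. Without replicate 3 the median over members was -0.035. Ndufaf3 had 20.6, 19.4, 18.4 and 20.2 CPM at ISO day 7, against 20.5, 19.9, 19.1 and 18.3 CPM at ISO baseline, and Cox6a1 had 71.4, 80.5, 74.4 and 77.8 CPM, against 83.3, 78.6, 72.6 and 75.3 CPM. Both overlapped the baseline.

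Set against ISO day 1, 43 of 91 members were higher and 2 were lower at ISO day 7 (47.3% and 2.2%, against 33.2% and 31.9% of all genes, 65.1% in either direction). By complex 28 of 46, 4 of 4, 0 of 8, 5 of 16 and 6 of 17 members were higher, in the order I to V. The 2 lower members were Cox6a1 (log2 change -0.84, SE 0.09, edgeR adjusted p = 4.48e-08) and Ndufaf4 (-0.29, SE 0.11, edgeR adjusted p = 0.0243, and 0.0781 or 0.0973 without ISO day 1 replicate 2 or ISO day 7 replicate 3). The Ndufaf4 call was lost in 3 of 17 alternatives, these fits among them. Ndufaf3 was higher by 1.06, Ndufa4l2 by 1.02, Atp5s by 0.86 and Cox4i2 by 0.85 on the log2 scale. The comparison shares the ISO day 1 libraries with that of day 1 and baseline. The count of higher members was 26 without ISO day 1 replicate 1, 22 without replicate 2 and 69 when scaled by library totals.

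At LPS day 7, compared with the same baseline as LPS day 1, 17 of 91 members were lower and none was higher than at LPS baseline (edgeR quasi-likelihood test, none higher at an unadjusted p under 0.05, none higher by DESeq2), which was 18.7% of members, against 3.13% of all genes lower and 5.96% higher (9.1% in either direction). Lower members numbered 5 of 46 in complex I, 0 of 4 in complex II, 4 of 8 in complex III, 6 of 16 in complex IV and 2 of 17 in complex V. No assembly factor was called. The median log2 change was -0.15 over members and 0.003 over all genes. For 49 members every LPS day 7 library lay below every LPS baseline library (53.8%, against 10% of all genes), and for none did every one lie above it (against 10.7%).

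The number of members called in each direction depended on the scale, although Uqcr11, Ndufa1, Cox7a1 and Cox8b were called lower in each of the 19 alternatives. Scaled by library totals, 1 member was higher and 7 were lower, and with log2(TPM + 0.1) 4 were higher and 5 lower. Those scales moved the median of all genes up, to 0.161 and 0.196, and with log2(TPM + 1) it was 0.145. The median of members less that of all genes was -0.150, -0.138 and -0.087 on these 3 scales, against -0.151 with the scaling used here. Changes at LPS day 7 are given relative to the other genes. The count of lower members was also 43 when the LPS baseline and day 7 libraries were fitted alone, and 6, 7, 10, 5 and 7 without LPS baseline replicate 1 or 2 or LPS day 7 replicate 2, 3 or 4.

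Small subunits of complexes I, III and IV were among the lower members. Uqcr11 had 337, 326, 296 and 325 CPM at LPS day 7, against 440, 419, 405 and 416 CPM at LPS baseline (log2 change -0.39, SE 0.07, edgeR adjusted p = 0.00192). Ndufa1, an accessory subunit of the membrane arm of complex I, had 62.6, 59.4, 57.6 and 59.3 CPM, against 76.3, 80.6, 73.4 and 76.7 CPM (log2 change -0.36, SE 0.07, edgeR adjusted p = 0.00295). The groups did not overlap for either. Ndufv1 changed by -0.31, Ndufa3 by -0.33, Uqcrq by -0.30, Uqcrc1 by -0.28, Cox6c by -0.30, Atp5e, the epsilon subunit of ATP synthase, by -0.32 and Atp5b by -0.23. The calls of Uqcrq, Uqcrc1, Cox6c, Atp5e, Atp5b and Cox4i1 were each lost without LPS baseline replicate 1 or 2 or LPS day 7 replicate 3 (edgeR adjusted p between 0.0519 and 0.149). That of Ndufa3 was lost in 3 of 19 alternatives, among them without LPS day 7 replicate 3 (edgeR adjusted p = 0.0577), and that of Ndufv1 in 2. Cox7b was also called lower, and its call was lost in 11 of 19 alternatives. Of succinate dehydrogenase, Sdha (-0.24), Sdhb (-0.23), Sdhc (-0.17) and Sdhd (-0.07) did not pass the test.

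The muscle forms Cox7a1 and Cox8b were lower at LPS day 7. Cox7a1 had 275, 338, 285 and 325 CPM, against 437, 430, 414 and 431 CPM at LPS baseline (log2 change -0.49, SE 0.10, edgeR adjusted p = 0.00338). Cox8b had 225, 254, 226 and 245 CPM, against 322, 301, 298 and 294 CPM (log2 change -0.35, SE 0.08, edgeR adjusted p = 0.00929). Of the 10 cardiomyocyte markers, 1 was lower and none was higher by the edgeR test. Their sum was 51561 to 62320 TPM at LPS day 7, against 49252 to 50212 TPM at LPS baseline, so each LPS day 7 library was above the baseline range. With log2(TPM + 0.1) the median of all genes was also up, by 0.196. The marker sum is therefore not on the scale of the CPM values of Cox7a1 and Cox8b. Neither Cox7a1 nor Cox8b overlapped between the groups, and Cox6a2 (-0.23, SE 0.09), Cox6a1 (0.09), Cox7a2 (-0.06) and Cox8a (0.01) did not pass the test.

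Measured as ratios within a library, which do not depend on the scaling between libraries, widely expressed forms held a larger share in every LPS day 7 library than in any LPS baseline library, without passing the test after adjustment. Cox7a2 made up 25.2%, 19.7%, 20.3% and 18.8% of subunit 7a TPM, against 17%, 16.6%, 16.6% and 16.2% at LPS baseline (difference in log2 ratio 0.41). Cox8a made up 18.6%, 14.7%, 16.7% and 16% of subunit 8 TPM, against 12.7%, 14.3%, 12.5% and 13.2% (0.38). Cox6a1 made up 6.65%, 5.14%, 5.65% and 5.14% of subunit 6a TPM, against 4.15%, 4.99%, 4.71% and 4.41% (0.32). In each pair all 4 LPS day 7 libraries lay above all 4 baseline libraries. Each exact two-sided permutation test gave p = 0.02857, the smallest possible, and an adjusted p of 0.09143 over 32 tests. The Cox7a2 share was above the baseline range at LPS day 1 too, with 18%, 18.9%, 17.3% and 17.1%. There the log2 ratio differed by 0.12 (exact p = 0.02857, adjusted p = 0.09143), while the Cox8a and Cox6a1 shares overlapped the baseline. An adjusted p under 0.05 would have needed many of the 32 tests at that smallest p. At LPS day 7, 6 of 7 macrophage markers and 5 of 5 tested T and natural killer cell markers were higher, with summed levels of 174 to 217 TPM and 11.6 to 14.5 TPM, against 81.3 to 102 TPM and 0.543 to 0.709 TPM at LPS baseline, and 7 fibroblast markers, none of them called, summed to 528 to 593 TPM, against 334 to 425 TPM. The part of these cell types in the shares was not tested. For subunit 4 the share of Cox4i2 was likewise above the baseline range, with 0.502%, 0.597%, 0.717% and 0.528% of the TPM of Cox4i2 and Cox4i1 at LPS day 7, against 0.501%, 0.459%, 0.422% and 0.396% at LPS baseline (difference in log2 ratio 0.39, exact p = 0.02857, adjusted p = 0.09143).

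Cox6b2, known as a testis form of subunit 6b, had the largest log2 change at LPS day 7 at a very low level. It had 0.776, 0.338, 0.456 and 0.522 CPM, against 0.978, 1.15, 0.987 and 0.87 CPM at LPS baseline (log2 change -0.93, SE 0.26, edgeR adjusted p = 0.0289), and its call was lost in 7 of 19 alternatives, among them the fits without LPS baseline replicate 1, 2 or 3 or LPS day 7 replicate 2, 3 or 4 (adjusted p = 0.0621, 0.0894, 0.0509, 0.0971, 0.0953 and 0.0581). Its partner Cox6b1 (-0.14) and the major form of subunit 4, Cox4i1 (-0.27, SE 0.08, edgeR adjusted p = 0.0423), were at far higher levels.

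Compared with LPS day 1, 15 members were higher and 17 were lower at LPS day 7 (16.5% and 18.7%, against 33.9% and 32.5% of all genes). The higher ones included 6 of 8 assembly factors, with Ndufaf3 at 0.67 (SE 0.08) and Ndufaf4 at 0.62 (SE 0.11), together with Cox4i2 at 1.20, Ndufa4l2 at 1.10 and Atp5s at 0.59 on the log2 scale. The lower ones were mostly subunits, with Ndufa1 at -0.37, Cox6c at -0.33, Uqcr11 at -0.26 and Cox6b2 at -1.17. This split depended on the scale, with 55 higher and 3 lower when scaled by library totals and 63 higher and 2 lower with log2(TPM + 0.1). The count of lower members was 8 without LPS day 1 replicate 2 and 28 without replicate 3. The ISO and LPS effects on day 7 differed for 0 of 91 members (edgeR, against 0.0953% of all genes higher and 0.362% lower, 0.458% in either direction), with 7 higher and 0 lower at an unadjusted p under 0.05 and none by DESeq2.

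The untreated groups of both arms were set against each other, since each arm had its own baseline. Of 91 members, 6 were higher at ISO baseline than at LPS baseline and none was lower (6.59%, against 0.737% of all genes higher and 0.477% lower, 1.21% in either direction). These were Uqcr10 (log2 difference 0.56, SE 0.08, edgeR adjusted p = 0.000287), Ndufa1 (0.39), Ndufa2 (0.38), Ndufb7 (0.38), Ndufa12 (0.35) and Atp5l (0.35), of which the Atp5l call was lost in 6 of 18 alternatives, each without 1 baseline library, and that of Ndufb7 without LPS baseline replicate 3 (edgeR adjusted p = 0.056). Uqcr10 had 270, 279, 273 and 260 CPM at ISO baseline and 188, 196, 176 and 174 CPM at LPS baseline. Apart from an alternative fit that pooled both baselines, treated hearts were compared with a baseline only within an arm.

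Genes of the same pathway outside the naming rule were examined from 3 lists. Of 41 further assembly factors, 31 were lower and 3 were higher at ISO day 1 (median log2 change -0.41), 28 were lower and 1 was higher at LPS day 1 (median -0.28), and 4 were lower at LPS day 7. Among all genes tested 32.8% were lower and 32.9% higher at ISO day 1, 33% lower and 33.2% higher at LPS day 1, and 3.13% lower and 5.96% higher at LPS day 7, and these shares apply to the other lists as well. Tmem126b, which builds the membrane arm of complex I, changed by -1.54 at ISO day 1 and -1.27 at LPS day 1. Sdhaf4, which matures the succinate dehydrogenase flavoprotein, changed by -1.39 and -1.44, and Lyrm7, a chaperone of the Rieske protein, by -1.37 and -1.39 (edgeR adjusted p at most 4.68e-09 for the 3 genes in both comparisons).

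The day 1 effects of ISO and LPS differed for 16 of the 41 further assembly factors, with 6 above 0 and 10 below 0, against 19.5% and 18.2% of all genes. Factors that handle copper for complex IV are given as a description, having been chosen after their values were seen. On the log2 scale Cox19 changed by 0.82 at ISO day 1 and by -0.49 at LPS day 1, and Sco2 by 0.39 and -0.44. Cox17 changed by -0.41 at ISO day 1 and by 0.13, without passing the test, at LPS day 1. Cox11 changed by 0.18, without passing the test, and -0.97, Sco1 by -0.53 and -0.78, and Coa6 by -0.64 and -0.88.

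Of 18 genes of the mobile electron carriers ubiquinone and cytochrome c and of electron transfer flavoprotein, 11 were lower and 3 higher at ISO day 1, 9 lower and 2 higher at LPS day 1, and 4 lower at LPS day 7. Coq8a, an atypical kinase needed for ubiquinone synthesis, changed by -2.07 at ISO day 1 and -0.71 at LPS day 1, while its paralogue Coq8b changed by 0.82 and 1.33. Coq10b, which is needed for ubiquinone to work in the chain, rose by 1.34 and 1.03 on the log2 scale. Of the 13 subunits encoded in mitochondrial DNA, 2 were lower at ISO day 1 (mt-Nd3 and mt-Nd6), 0 at LPS day 1 and 7 at LPS day 7, with median log2 changes of -0.16, -0.12 and -0.34.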

How the data were processed

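Whole-heart poly-A RNA libraries of 23 mice in 6 groups were analysed. Each deposited file held estimated counts, TPM values and effective lengths per gene; per the submitters' processing notes the tools were bcl2fastq, DRAGEN, edgeR and limma with the mm10 build, and versions were not given in the sources used here. The estimated counts as deposited by the authors were not whole for 9.5% of all values and were rounded. The TPM values as deposited by the authors were used for levels, shares and paralogue ratios.

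Of 55487 identifiers, 55141 matched GENCODE M21, which gave symbols and positions on GRCm38. The members, lists and tests were chosen with earlier results of these data known. Genes passing filterByExpr (minimum count 10; 15732 genes) were fitted in edgeR 4.0.16 (R 4.3.3) with TMM scaling and 1 quasi-likelihood model of the 6 groups. A gene was called at a Benjamini-Hochberg adjusted p under 0.05, and SEs were derived from the F statistic. CPM values are TMM-scaled. The log2 ratios of paralogue pairs were compared by exact two-sided permutation tests (scipy 1.17.1, Python 3.11.15), adjusted over 32 tests. Summed levels and shares of the complexes were described by their values and not tested. Named genes were the paralogue panel, all succinate dehydrogenase subunits, up to 3 called members with the smallest adjusted p per complex, direction and comparison, called members with an absolute log2 change of at least 1 or against the direction of their complex, and those whose day 1 effects differed; other genes given with values were chosen after their values were seen. One member is counted in the totals but its own values are not reported here. The code was tested on simulated counts.

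Nothing says how replicates were raised or processed, so p-values measure the spread between these libraries, which may in part be technical. Replicates of each group differed by more than counting error (chi-square over degrees of freedom 4.069 to 46.33), and none were merged. Same-numbered libraries did not deviate together. Library totals were 20910394 to 30368985 reads, and counting error weighs most on Cox6b2 and Cox4i2. Alternatives were DESeq2 1.42.0, limma 3.58.1 on log2(TPM + 0.1) and log2(TPM + 1), other scalings, filters and fits, and each library left out.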

Additional observations from a re-analysis of the deposited data

Results flagged for a closer look

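Among 155 groups of 4 libraries examined, 8 held 1 library far from the other 3, and chance flags about 1 in 20 such groups. Summed TPM of complex I at ISO day 7 was 17799 in replicate 2, against 16330, 16503 and 16461 in the others, and for all members it was 61185, against 57331, 57514 and 57165. Summed TPM of complex IV at LPS baseline was 16429 in replicate 1, against 16099, 16146 and 16144, and that of all members at ISO baseline was 60288 in replicate 3, against 60510, 60475 and 60475, a gap of little size. Cox4i1 had 1247 CPM in LPS baseline replicate 1, against 1132, 1126 and 1130 CPM, and Cox6a1 had 79.6 CPM in LPS baseline replicate 2, against 66, 67 and 65.5 CPM. Cox8b had 254 CPM in ISO day 7 replicate 3, the library rich in fibroblast markers, against 307, 313 and 306 CPM. Ndufa4 had 256 CPM in LPS day 7 replicate 3, against 281, 279 and 277 CPM.

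The day 1 effects of ISO and LPS differed by the interaction test in edgeR for 6 members, 5 of which are given here. The ISO effect less the LPS effect on the log2 scale was 1.029 for Ndufaf4, 0.652 for Cox6a1 and 0.298 for Cox8a, and it was -0.434 for Cox6a2 and -0.295 for Uqcr10. The causes of these differences were not tested.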

How the results depend on the processing

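In the alternatives run, at least 45 members were lower at ISO day 1 and none was called at ISO day 7 against baseline. Lower members at LPS day 1 numbered 59 with library totals, 51 with pooled baselines, 65 with log2(TPM + 0.1) and 65 with log2(TPM + 1), and 69 or 13 without LPS day 1 replicates 1 and 2 or 3 and 4. Higher members there numbered 1 and 2 in those same last fits and 1 with newer symbols. At LPS day 7, 1, 4 and 5 members were higher with library totals, log2(TPM + 0.1) and log2(TPM + 1), and 7, 5 and 5 were lower, while 43 were lower with the compared groups alone and 43 with pooled baselines. Between ISO day 7 and ISO day 1, 69 were higher with library totals and 1 was lower with the groups alone. Between LPS day 7 and LPS day 1, 55, 63 and 63 were higher and 3, 2 and 2 lower on those 3 scales, 10 lower with the groups alone, 26 higher and 3 lower without LPS day 1 replicates 1 and 2, and 38 lower without replicates 3 and 4. For the day 1 difference 5 were higher on both TPM scales and 5 without LPS day 1 replicates 1 and 2, while 23 were lower with library totals, 7 with DESeq2, 10 and 10 on the TPM scales and 36 without replicates 3 and 4. For the day 7 difference 1 and 1 were lower on the TPM scales. Between baselines 20 were higher and 3 lower with the groups alone, 13 and 13 higher and 5 and 5 lower on the TPM scales, and 2 lower with library totals.

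As sums of CPM, log2 changes were -0.319 for complex I and -0.262 for all members at ISO day 1, -0.128 for complex III at ISO day 7, -0.192 for complex II and -0.111 for complex V at LPS day 1, and -0.171, -0.212, -0.243, -0.227, -0.161 and -0.188 for complexes I to V and all members at LPS day 7. Between LPS day 7 and day 1 the sign turned for Ndufa2 (0.004), Ndufa9 (0.090), Uqcr10 (0.009), Uqcrq (0.012) and Atp5b (0.055) on both TPM scales, and for Ndufa9 (0.029) and Atp5b (0.037) with library totals. The cause was not tested.

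With each library left out, higher and lower members numbered 1 to 3 and 45 to 72 at ISO day 1, 0 and 0 at ISO day 7, 0 to 1 and 18 to 60 at LPS day 1, 0 and 5 to 15 at LPS day 7, 22 to 57 and 1 to 2 between ISO days, 12 to 21 and 8 to 28 between LPS days, 3 to 4 and 2 to 19 for the day 1 difference, 0 to 2 and 0 for the day 7 difference and 3 to 6 and 0 between baselines. Higher members at ISO day 1 numbered 1 without ISO baseline replicate 4 or ISO day 1 replicate 1. Without LPS day 1 replicate 4, the day 1 difference was below 0 for 6 called members, without ISO day 7 replicate 3 the day 7 difference was above 0 for 2, and without LPS baseline replicate 3, 3 were higher between baselines.

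Same-numbered libraries of compared groups had correlations of -0.118 to 0.082, so they share only a number; with a replicate block 6 members were lower in the day 1 difference, and the other counts stayed within 1.5 times. The 156 results for named genes gave 3024 pairs of a result and an alternative, with each alternative fit serving many genes. Of these pairs 2707 kept direction and call, 231 lost the call, 74 gained it and 12 turned sign. Depth limited Cox6b2 and Cox4i2 most, with a few CPM or less.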
